A study of Mus musculus with 24 samples.

Results

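The effect of the Q175 allele was measured in mouse striatum that lacked Tyrobp. Genotype labels chose the samples: 6 libraries labelled Q175 heterozygote;Tyrobp-KO were set against 6 labelled Tyrobp-KO, 12 of the 24 libraries in the series. Both groups carried the Tyrobp deletion, were on the C57BL/6 strain and held 3 males and 3 females, and they differed by a single copy of the Q175 allele. They are called Q175;Tyrobp-KO and Tyrobp-KO here. Age was not stated. The titles gave 12 different animal numbers that shared a prefix, and replicate numbers here only name a library. The other 12 libraries, 6 wild type and 6 heterozygous for Q175 with Tyrobp intact, entered the same fit and gave the Q175 effect in the presence of Tyrobp. Total counts ranged from 25.5 M to 34.6 M reads per library. Within a genotype, the 30 possible library pairs differed by a mean chi-square of 6.89 to 37.3 per gene, above sampling noise, so each library was counted separately. The p-values measure the spread between these animals' samples.

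In Q175 mice an expanded CAG tract has been knocked into the huntingtin gene Htt, to model Huntington's disease. The striatum consists mostly of spiny projection neurons, which respond to dopamine through cyclic AMP and DARPP-32 and which lose the expression of many of their own genes in such models, while genes that Polycomb complexes keep silent in neurons tend to rise. Tyrobp (DAP12) is the adaptor through which microglial receptors such as TREM2 signal, and it lies on the route by which microglia enter the disease-associated state. The comparison asked what the Q175 allele changed when that adaptor was missing.

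Marker genes of neighbouring tissue varied between the libraries and leaned with the genotype, cortical markers lower and choroid plexus markers higher in Q175;Tyrobp-KO, although none of them passed the test. Slc17a7, the vesicular glutamate transporter of cortical neurons, ranged from 276 to 605 CPM (read counts relative to library size, scaled by TMM) in Tyrobp-KO and from 5.88 to 575 CPM in Q175;Tyrobp-KO, where library 6 was the lowest. Ttr, transthyretin of the choroid plexus, reached 512 and 516 CPM in Q175;Tyrobp-KO libraries 4 and 6, and lay between 11.3 and 177 CPM in the other 10. Over 15 cortical marker genes the summed level was 930 to 2207 CPM in Q175;Tyrobp-KO and 1775 to 2460 CPM in Tyrobp-KO, with a median log2 fold change of -0.34. For 15 choroid plexus genes the ranges were 350 to 1219 CPM and 323 to 594 CPM, and the median was 1.65, or 0.13 without libraries 4 and 6. Of the 14 tested genes of thalamus, septum and pallidum and the 4 tested blood genes, as of the cortical and choroid genes, none passed the test that 5.86% of all genes passed. The part of dissection in the results was not tested. For most lists with called genes the counts are therefore also given without libraries 4 and 6.

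**Figure D1:**
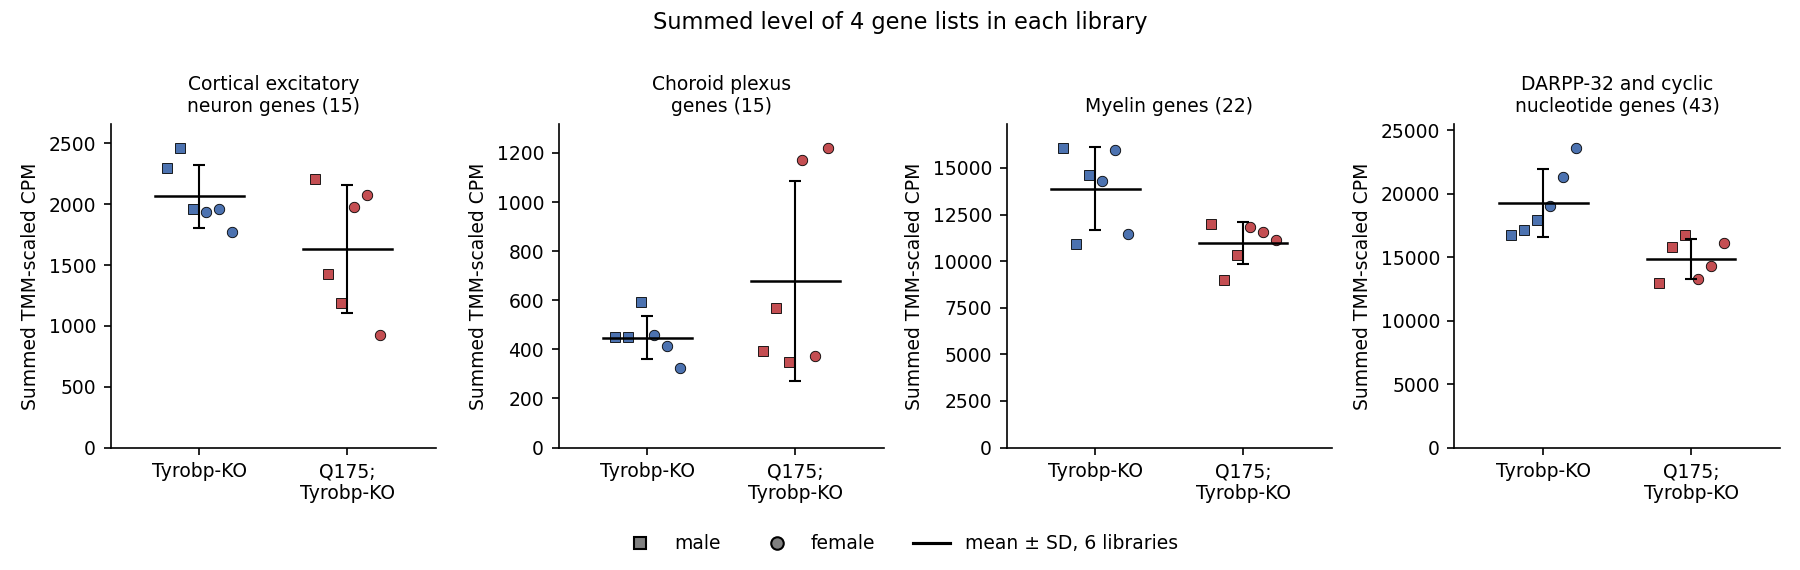
Summed TMM-scaled CPM of 4 gene lists in each of the 12 libraries, by group, with squares for males, circles for females, and bars for the mean and SD of 6 libraries. Q175;Tyrobp-KO libraries 4 and 6 stand at the top of the choroid plexus panel, and the sums of the DARPP-32 list in Q175;Tyrobp-KO lie between 12957 and 16726 CPM, below those of every Tyrobp-KO library, 16773 to 23573 CPM.

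With edgeR's quasi-likelihood test and Benjamini-Hochberg adjustment, 1153 of 19667 genes (5.86%) passed an adjusted p of 0.05, 547 of them higher (2.78%) and 606 lower (3.08%) in Q175;Tyrobp-KO. A gene that passed is said below to have risen or fallen. The median size of a called change was 0.39 on the log2 scale, and 137 called genes changed by more than 1, of which 60 rose and 77 fell. The called genes that rose had a median of 20.2 CPM in Tyrobp-KO, those that fell 48.2 CPM, and all tested genes 11.5 CPM. Groups did not overlap for 437 genes in the higher direction (2.22%) and for 446 in the lower (2.27%). Without libraries 4 and 6, 450 genes were called, 218 higher and 232 lower.

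Htt, which carries the allele, was measured on both the normal and the knock-in copy together. It ranged from 162.5 to 178 CPM with a median of 169 in Q175;Tyrobp-KO and from 188 to 236 CPM with a median of 215 in Tyrobp-KO. Every Q175;Tyrobp-KO library was below every Tyrobp-KO library. Its mean was lower by 21.2% (a change of -21.2%), with a 2-sided exact permutation p of 0.00216, the smallest that 924 splits allow, and a log2 fold change of -0.34 ± 0.06 (SE, edgeR adjusted p = 0.000315). Tyrobp itself gave 58 reads over the 6 Tyrobp-KO libraries and 44 over the 6 Q175;Tyrobp-KO libraries, 0.341 ± 0.093 and 0.260 ± 0.042 CPM (SD, n = 6), so the deletion held in both groups, against 7.88 CPM in wild type. The difference between the groups did not pass (exact permutation p = 0.0952).

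The largest rises were in developmental transcription factors that adult striatum normally keeps silent. Onecut1, a cut-homeodomain factor of liver, pancreas and motor neurons, lay between 2.36 and 4.29 CPM with a median of 3.33 in Q175;Tyrobp-KO, and between 0 and 0.116 CPM with a median of 0.0324 in Tyrobp-KO. Wt1, a zinc-finger factor of kidney and gonad, lay between 3.52 and 6.97 CPM with a median of 5.08, against 0.0714 to 0.392 CPM with a median of 0.0824. Neither gene's groups overlapped, and their log2 fold changes were 6.19 ± 0.42 for Onecut1 and 5.18 ± 0.36 for Wt1 (edgeR adjusted p = 2.31e-10 for both). Pax2, a paired-box factor of kidney and midbrain-hindbrain boundary, rose by 4.48 ± 0.87 (edgeR adjusted p = 0.00262), from 8 reads over 6 libraries to 193. Skor1 (2.04 ± 0.44), Twist1 (2.49 ± 0.54), Onecut2 (0.68 ± 0.17) and Nkx6-1 (2.40 ± 0.62) also rose and were named after their values were seen. In all, 79 developmental transcription factors outside the Hox clusters were listed, 30 had enough reads to be tested, 7 rose and none fell, or 5 and none without libraries 4 and 6. Their median log2 fold change was 0.34, against -0.0019 over all genes. Pax6 at 0.34 ± 0.12 and Otx2 at 1.36 ± 0.85, also named after their values were seen, did not pass. By the factor families given in the deposited table, 77 of 232 homeobox genes were tested, 7 rose and none fell (9.09%).

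Hox genes, which give cells their position along the body axis and are normally silent in forebrain, came up from almost no reads. Hoxc4 ranged from 2.20 to 6.57 CPM with a median of 4.73 in Q175;Tyrobp-KO. In Tyrobp-KO it had no read in 4 libraries and at most 0.146 CPM. Hoxc5 lay between 1.45 and 4.76 CPM, 408 reads in all, and had no read in any Tyrobp-KO library, so that it was at least 139.8-fold higher, taking 3 reads over the group as the floor (0.0176 CPM). Hoxc6 gave 120 reads against 1, a ratio of 126.5 with a 95% counting interval of 22.3 to 5037. These were the 3 Hox genes called of 5 tested and 39 listed, and all 3 were also called without libraries 4 and 6. The deposited spans of Hoxc5 and Hoxc6 overlap on chromosome 15 (102967443 to 103017429 and 102998257 to 103011881), so reads between them may be shared.

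Outside those 3 genes the Hox clusters gave few reads, but these too lay mostly in Q175;Tyrobp-KO. Over all 39 genes there were 1528 reads in Q175;Tyrobp-KO and 97 in Tyrobp-KO, and without the 3 called genes 268 and 90. Read by cluster, the Hoxc genes gave 1296 against 7, Hoxa 100 against 41, Hoxb 57 against 13 and Hoxd 75 against 36. Of the 39, 15 had reads in Q175;Tyrobp-KO alone, 2 in Tyrobp-KO alone, 8 in both and 14 in neither. After Hoxc5, Hoxd8 (19 reads), Hoxb5 (17) and Hoxc8 (16) had the most reads of the genes with none in Tyrobp-KO, and were named after their values were seen. With Tyrobp intact, Q175 striatum gave 2017 Hox reads and wild type 65.

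The bases upstream of the start are printed for 3 genes, to show a promoter dense in CG dinucleotides, a promoter with few, and a promoter with a named motif (RefSeq, build GRCm38.p6, the 250 bases before the start, 5′ to 3′ on the gene's strand). Onecut1, on chromosome 9 at chr9:74861671-74861920 (+), held 31 CG, against a median of 6 over the 32851 windows in the table. Gpx6, a glutathione peroxidase described below among the genes that fell, held 3 at chr13:21311953-21312202 (+). CG is in capitals in these 2 sequences.
Onecut1: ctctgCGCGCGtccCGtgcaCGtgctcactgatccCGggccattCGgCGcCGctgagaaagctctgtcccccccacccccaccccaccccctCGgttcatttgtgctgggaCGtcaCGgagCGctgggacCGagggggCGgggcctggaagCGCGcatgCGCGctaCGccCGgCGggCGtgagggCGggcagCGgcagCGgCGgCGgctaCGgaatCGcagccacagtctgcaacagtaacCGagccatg
Gpx6: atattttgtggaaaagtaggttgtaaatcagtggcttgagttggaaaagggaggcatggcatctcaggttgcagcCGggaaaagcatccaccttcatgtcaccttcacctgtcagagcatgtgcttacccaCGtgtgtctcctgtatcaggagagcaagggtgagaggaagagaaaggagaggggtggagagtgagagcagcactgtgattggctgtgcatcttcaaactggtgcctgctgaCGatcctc
Cbx8, a Polycomb subunit described next, held the cyclic AMP response element TGACGTCA (its own reverse complement, in capitals) once at chr11:119040914-119041163 (-), beginning 29 bases before the start.
Cbx8: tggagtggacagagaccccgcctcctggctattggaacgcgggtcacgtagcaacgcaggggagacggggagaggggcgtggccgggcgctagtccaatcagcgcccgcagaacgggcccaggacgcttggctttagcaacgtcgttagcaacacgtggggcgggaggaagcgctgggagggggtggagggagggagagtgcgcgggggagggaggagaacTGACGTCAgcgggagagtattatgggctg
That motif occurred in 508 of the 32851 windows (1.55%). The RefSeq start of Gpx6 was 78 bases and that of Cbx8 56 bases from the 5′ end in the deposited table. Windows matched 12965 of the tested genes (65.9%) and 826 of the called ones (71.6%), under the 80% set for comparing sets, so no comparison of promoters between called and other genes was made.

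Polycomb genes were themselves among the genes that rose. Of 33 tested subunits and H3K27 demethylases, 4 rose and none fell, or 2 and none without libraries 4 and 6, and the median over the list was 0.03. Cbx8, a chromobox subunit of the PRC1 complex, lay between 11.02 and 20.1 CPM with a median of 17.5, against 7.58 to 10.2 CPM with a median of 8.36, and rose by 0.99 ± 0.14 (edgeR adjusted p = 5.52e-05). Its groups did not overlap. Smaller rises were found for Phf1, an accessory subunit of PRC2 (0.29 ± 0.08, edgeR adjusted p = 0.0222, or 0.077 without libraries 4 and 6), and Rnf2, the ubiquitin ligase of PRC1 (0.22 ± 0.06, edgeR adjusted p = 0.0274, named after its value was seen). Sfmbt2, which encodes a Polycomb-group protein with MBT repeats and came into the text as one of the 12 higher genes of smallest p, rose by 2.10 ± 0.20, from a median of 2.34 to one of 10.8 CPM.

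The clustered protocadherins, adhesion proteins whose promoters neurons choose among at random, had 17 of 56 tested genes higher and 1 lower. The median was 0.20, and 41 of the 56 had a positive log2 fold change. Without libraries 4 and 6, 11 rose and none fell. Pcdhb22 lay between 17.9 and 24.1 CPM with a median of 21.3, against 12.01 to 15.2 CPM with a median of 13.2. Its rise of 0.66 ± 0.08 (edgeR adjusted p = 5.21e-06) was followed in p by Pcdhb9 (0.48 ± 0.07, adjusted p = 4.47e-05) and Pcdhb20 (0.51 ± 0.08, adjusted p = 0.000338). Of the 17, 13 were of the beta cluster and 4 of the gamma cluster. The member that fell was Pcdhb8 (-0.49 ± 0.12), named after its value was seen. Members of this family are alike in sequence, so reads between them may have been split or lost by the counting.

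**Figure D2:**
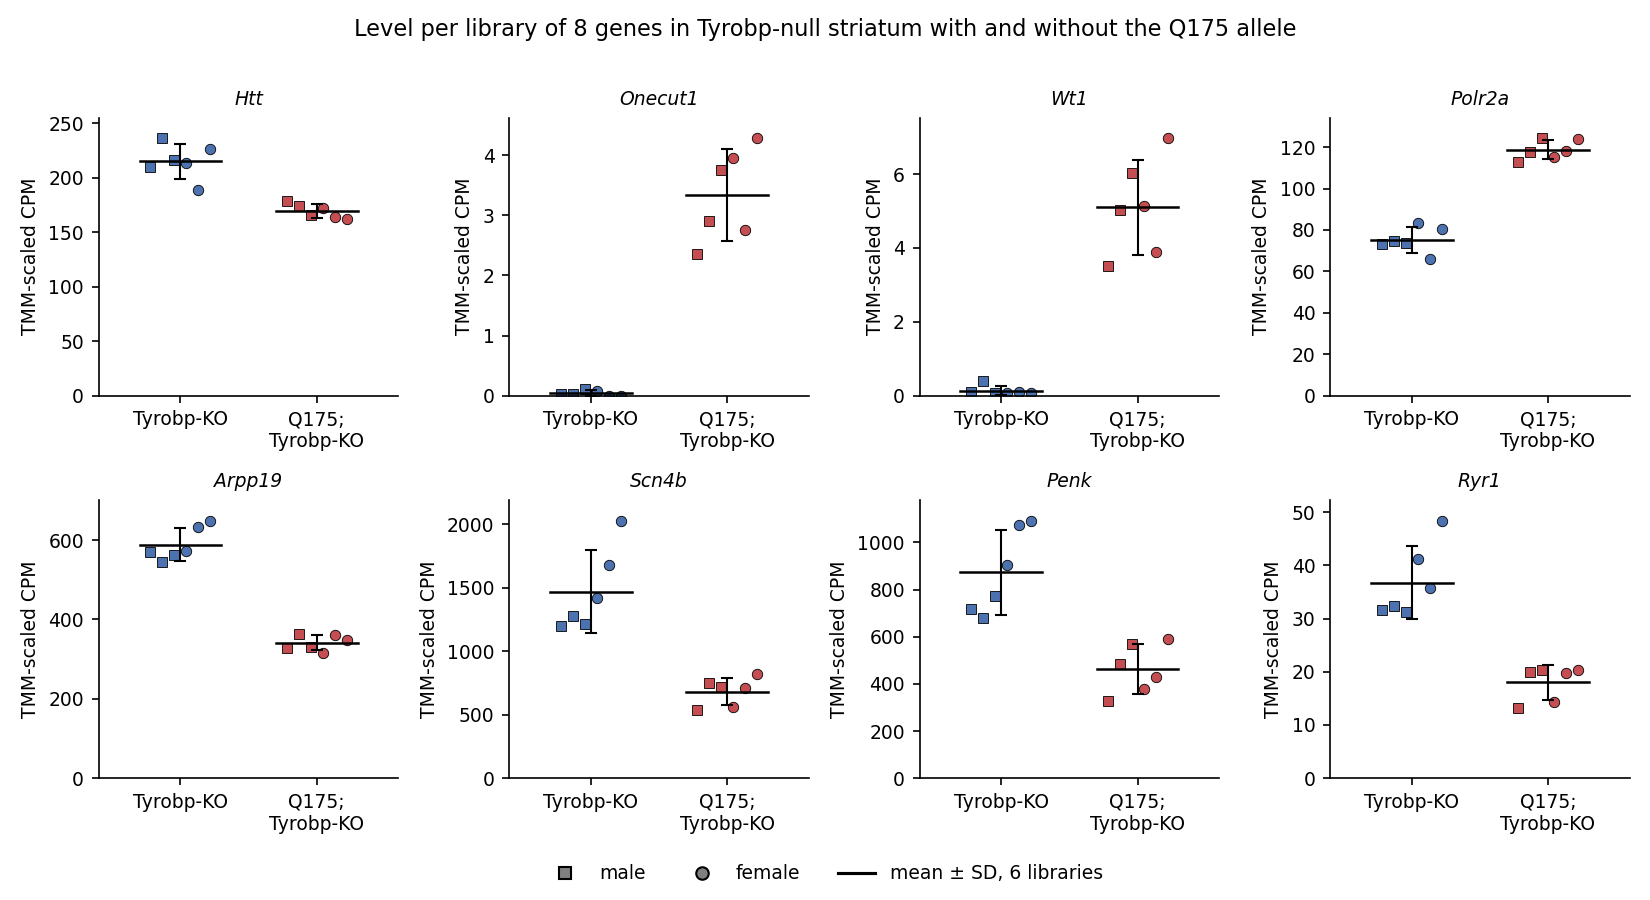
TMM-scaled CPM of 8 genes in each library, each panel on its own axis from 0, with squares for males, circles for females, and bars for the mean and SD of 6 libraries. Onecut1, Wt1 and Polr2a are higher and Htt, Arpp19, Scn4b, Penk and Ryr1 lower in Q175;Tyrobp-KO, and in none of the 8 do the groups overlap.

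Other genes of smallest p that rose had varied roles. Polr2a, the largest subunit of RNA polymerase II, lay between 113 and 124 CPM with a median of 118, against 66.0 to 83.5 CPM with a median of 74.2, and rose by 0.66 ± 0.06 (edgeR adjusted p = 1.47e-07). Samd14, a sterile alpha motif protein, rose by 0.78 ± 0.08, and Gprasp2, which sorts G-protein-coupled receptors, by 0.51 ± 0.06. Col6a2, a collagen VI chain, rose by 0.80 ± 0.09, and Smoc1, a secreted calcium-binding matrix protein, by 0.78 ± 0.09. The groups did not overlap for any of these 5 genes.

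Some spiny projection neuron genes fell, and others did not pass. In the list of DARPP-32 and cyclic nucleotide signalling, 11 of 43 tested genes fell and 1 rose, with a median of -0.26, and 37 of 43 had a negative log2 fold change. Without libraries 4 and 6, 7 fell and none rose. Arpp19, a phosphoprotein that inhibits protein phosphatase 2A, lay between 316 and 364 CPM with a median of 339, against 546 to 649 CPM with a median of 571. It fell by 0.78 on the log2 scale (SE 0.08, edgeR adjusted p = 3.61e-07). Rgs14, a regulator of G-protein signalling, fell from a median of 55.9 to 36.4 CPM (-0.66 ± 0.09, edgeR adjusted p = 1.80e-05), and Ppp1r16b, a regulator of protein phosphatase 1, from 389 to 279 CPM (-0.45 ± 0.07, adjusted p = 0.000165). None of these 3 overlapped between groups. Pde10a, the striatal phosphodiesterase (-0.72 ± 0.15), Ppp3ca, the calcineurin catalytic subunit (-0.40 ± 0.08), and Adcy5, the striatal adenylyl cyclase (-0.45 ± 0.13, adjusted p = 0.0471), also fell, while Pde4d rose by 0.31 ± 0.09; these 4 were named after their values were seen.

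Ppp1r1b, the gene for DARPP-32 itself, did not pass. Its 6 Q175;Tyrobp-KO libraries read 674, 955, 1078, 737, 961 and 1051 CPM, and its 6 Tyrobp-KO libraries 1045, 992, 1045, 1239, 1550 and 1626 CPM. The groups overlapped, and the difference was -0.45 ± 0.16 on the log2 scale (adjusted p = 0.0998, edgeR). In a fit with a cortical marker score as a covariate, an alternative added after the data were seen, 21 genes of the list fell and 2 rose. Levels in bulk tissue do not tell fewer spiny neurons from less RNA in each.

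Receptors of the striatum followed the same direction. Of 30 tested G-protein-coupled receptors 8 fell and 2 rose, with a median of -0.28, or 5 and 1 without libraries 4 and 6. Cnr1, the cannabinoid receptor CB1, lay between 177 and 245 CPM with a median of 223, against 340 to 531 CPM with a median of 368 (-0.92 ± 0.15, edgeR adjusted p = 0.000467). Grm3, a metabotropic glutamate receptor, fell by 0.39 on the log2 scale (SE 0.07, adjusted p = 0.000390), and Oprd1, the delta opioid receptor, by 0.48 (SE 0.08, adjusted p = 0.000557). Groups of these 3 genes did not overlap. The dopamine receptor genes, named after their values were seen, straddled the threshold: Drd1 fell (-0.51 ± 0.15, adjusted p = 0.0399), whereas Drd2 at -0.48 ± 0.16 did not pass (adjusted p = 0.0840). Htr2c, a serotonin receptor that is also abundant in choroid plexus, rose by 1.02 ± 0.19 (adjusted p = 0.00304, named after its value was seen). It lay between 62.1 and 111 CPM in Q175;Tyrobp-KO and 33.8 and 51.8 CPM in Tyrobp-KO, and these ranges did not overlap. The part of choroid plexus tissue in this was not tested.

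Among the peptide precursors, Penk and Nts moved in opposite directions. Penk, the enkephalin precursor of indirect-pathway neurons, lay between 326 and 591 CPM with a median of 456, against 681 to 1092 CPM with a median of 838, and fell by 0.91 on the log2 scale (SE 0.15, edgeR adjusted p = 0.00101). Nts, the neurotensin precursor, rose by 0.78 ± 0.17 (adjusted p = 0.00665) from a median of 3.12 to 5.52 CPM. The other 11 tested precursors did not pass, Scg2 among them at 0.31 ± 0.11. Tac1 and Pdyn, peptides of direct-pathway neurons, were at 0.13 ± 0.14 and -0.05 ± 0.13 (named after their values were seen). Of 18 interneuron markers none was called by edgeR, with Kit (-0.19 ± 0.08, adjusted p = 0.164) the nearest.

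Channels and calcium handling held several of the larger falls. Scn4b, the beta-4 subunit of voltage-gated sodium channels, lay between 539 and 818 CPM with a median of 714, against 1196 to 2030 CPM with a median of 1346, and fell by 1.10 on the log2 scale (SE 0.14, edgeR adjusted p = 2.60e-05). In the same list Scn9a rose by 0.94 ± 0.19 (adjusted p = 0.00414) and Scn3b by 0.37 ± 0.11 (adjusted p = 0.0413, or 0.14 without libraries 4 and 6), 3 called of 12 tested. Of 37 calcium channel, store and pump genes 9 fell and 1 rose, with a median of -0.14, or 4 and none without those libraries. Ryr1, a ryanodine receptor that releases stored calcium, fell by 1.03 (SE 0.14, adjusted p = 9.04e-05), Itpr1, the IP3 receptor, by 0.37 (SE 0.07, adjusted p = 0.000952), and Atp2b1, a plasma membrane calcium pump, by 0.45 (SE 0.09, adjusted p = 0.00156). Of 65 potassium channel genes 6 fell and 2 rose, or none and 1 without those libraries, with a median of -0.14 in the 12 libraries and -0.15 without those libraries. Kcnh8 rose by 1.56 ± 0.30 and Kcng1 by 0.59 ± 0.13, and Kcnh4 was at -0.56 ± 0.13 (adjusted p = 0.00892, or 0.100 without those libraries).

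Of 31 glutamate and GABA receptor subunits 3 fell (9.68%, where 3.08% of all genes were called lower), namely Gabrd (-0.46 ± 0.08), Grik2 (-0.55 ± 0.10) and Gria3 (-0.24 ± 0.07), or 2 without libraries 4 and 6. None of 49 synaptic vesicle and release genes was called. Of 34 immediate early genes 4 fell and none rose (11.8%), with a median of -0.36. The count was 1 without those libraries, where the median was -0.38, and 11 in a fit of these 12 libraries alone. Homer1, whose short form is induced by activity, fell by 0.62 on the log2 scale (SE 0.10, edgeR adjusted p = 0.000474), followed by Egr3, Dusp6 and Egr2, the last (-1.70 ± 0.45) named after its value was seen. Among 9 tested BDNF and neurotrophin genes Ntrk3, Sort1 and Ngfr fell, by 0.31, 0.22 and 0.66 on the log2 scale, and 1 was called without libraries 4 and 6.

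The lower genes of smallest p were mostly not in these groups. Ddit4l, an inhibitor of mTORC1 signalling, lay between 5.88 and 7.15 CPM with a median of 6.64, against 15.6 to 23.4 CPM with a median of 19.1 (-1.57 ± 0.12, edgeR adjusted p = 1.07e-09). Mafa, a bZIP factor best known from insulin-producing cells, was at -1.93 ± 0.16, and Phex, an endopeptidase of phosphate balance, at -1.76 ± 0.16. Jag1, a Notch ligand, was at -0.82 ± 0.09, and Itga9, an integrin subunit, at -0.90 ± 0.10. Gpx6 lay between 0.388 and 1.85 CPM with a median of 0.696, against 4.74 to 12.4 CPM with a median of 6.45, and had the largest fall of the 12 (-3.002 ± 0.31, adjusted p = 1.43e-06). Il17rc, an interleukin-17 receptor subunit, was at -1.36 ± 0.15 and Plk5, a polo-like kinase, at -1.10 ± 0.12. Hipk4 (-0.94 ± 0.10), Nrep (-0.77 ± 0.08) and Gm19410 (-1.09 ± 0.10) completed the 12 with Arpp19. In all 12 the groups did not overlap.

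Of 25 genes listed for p53 and brakes on the cell cycle, 4 fell and none rose (3 and none without libraries 4 and 6). They were Ddit4l, Plk5, Cdkn1a, the cyclin-dependent kinase inhibitor p21 (-0.58 ± 0.12, edgeR adjusted p = 0.00345), and Plk2 (-0.30 ± 0.09, named after its value was seen). The list median was -0.04.

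**Figure D3:**
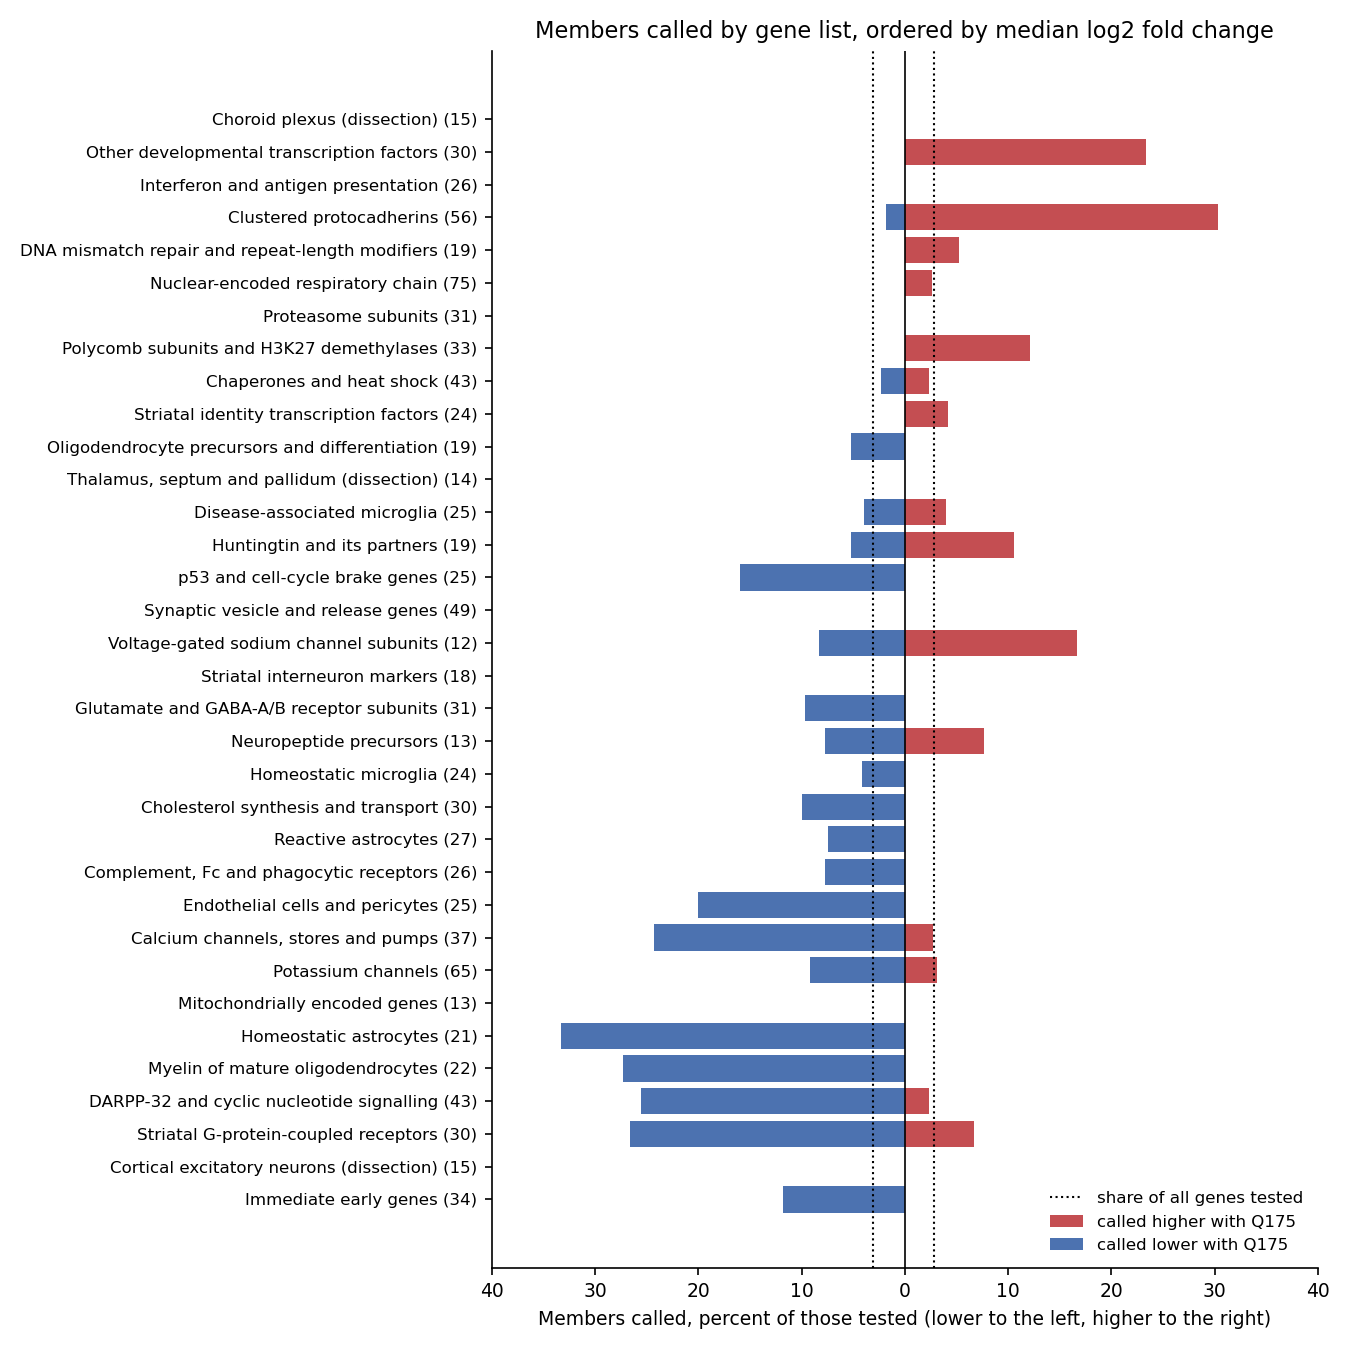
Share of tested members called lower (to the left) or higher (to the right) with Q175 in each list of 10 or more tested genes, the number tested in brackets, ordered by median log2 fold change. Dotted lines give the shares over all genes, 3.08% and 2.78%. The protocadherin and developmental factor lists extend to the right, and the astrocyte, myelin, DARPP-32, receptor and calcium lists to the left.

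Microglial genes were called at shares near that of all genes. Of 25 tested genes of the disease-associated state 1 rose and 1 fell, 8% against 5.86% of all genes, with a median of -0.02. Timp2, a metalloprotease inhibitor that neurons also express, lay between 297 and 356 CPM with a median of 327, against 228 to 256 CPM with a median of 249 (0.40 ± 0.06, edgeR adjusted p = 5.95e-05). Fth1, the ferritin heavy chain, which many cell types express, was at -0.39 ± 0.10 (adjusted p = 0.0244, or 0.14 without libraries 4 and 6). Ctsl, cathepsin L, was at 0.18 ± 0.06 (adjusted p = 0.0995). Genes more particular to activated microglia were low in both groups: Clec7a had a median of 0.153 CPM in Q175;Tyrobp-KO and 0.144 in Tyrobp-KO, Cst7 0.145 and 0.204, and Lyz2 4.95 and 4.28 (named after their values were seen). Of 24 homeostatic microglial genes only Mertk, a phagocytic receptor that astrocytes also express, was called (4.17% of the list), at -0.29 ± 0.06 (adjusted p = 0.00343). P2ry13 at -0.17 ± 0.09 and Cd33 at -0.26 ± 0.10 were the next by p, and the list median was -0.09. The summed level of the list was 681 to 850 CPM in Q175;Tyrobp-KO and 666 to 863 CPM in Tyrobp-KO.

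Of 26 tested complement, Fc and phagocytic receptor genes 2 fell (7.69% called, against 5.86% of all genes). They were regulators of complement on the cell surface, Cd46 (-0.40 ± 0.09, edgeR adjusted p = 0.00398) and Cd59a (-0.98 ± 0.26, adjusted p = 0.0308), and Cd55, the third such regulator, was at -0.51 ± 0.17 (adjusted p = 0.0693). Without libraries 4 and 6 the 2 called were Cd46 and Cd55 (edgeR adjusted p = 0.0478 and 0.0378), and Cd59a was not called (0.0532). C1qa, C1qb and C1qc lay between -0.05 and -0.01 on the log2 scale (named after their values were seen). None of 26 interferon and antigen presentation genes passed. Their median was 0.20, or -0.02 without libraries 4 and 6, and Cd74, Tap1 and H2-Aa had the smallest p.

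With Tyrobp present, the same allele gave a different count for the disease-associated genes. In Q175 against wild type 8 of the 25 rose and none fell, with a median of 0.23, where 1893 of all genes were called (9.63%), 817 higher (4.15%) and 1076 lower (5.47%). The titles' prefix differed between most of these Q175 and wild-type animals, so that contrast is in part between prefixes. Choroid plexus genes had a median of 2.95 there and 4 of 15 rose, and their part in the result was not tested. The difference between the 2 effects was negative for 24 of the 25 genes, with a median of -0.25 against -0.0025 over all genes. It had an unadjusted p under 0.05 for 7 of them, where 707 of all genes did (3.59%), and it passed the adjusted test for none. Lyz2, lysozyme, rose by 0.93 with Tyrobp and was at 0.05 ± 0.17 without (difference -0.88 ± 0.24, unadjusted p = 0.00098). Cst7, Clec7a, Ccl6 and Cd9 had differences of -2.53 ± 0.79, -2.21 ± 0.76, -0.98 ± 0.27 and -0.45 ± 0.14, and the astrocyte gene Gfap one of -0.80 ± 0.27; these 6 were named after their values were seen.

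**Figure D4:**
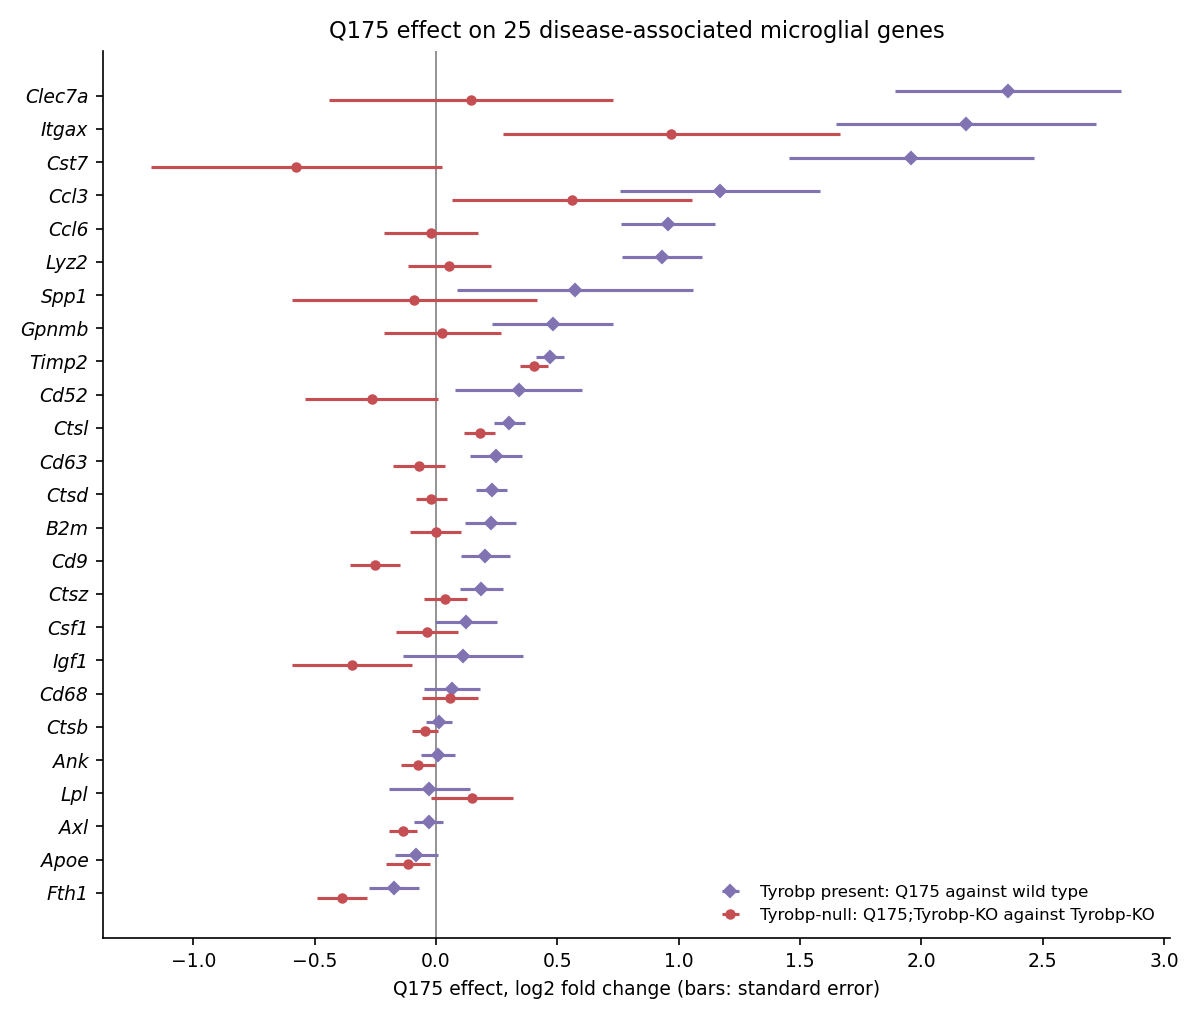
Log2 fold change of the Q175 allele for 25 disease-associated microglial genes, with Tyrobp present (diamonds, Q175 against wild type) and in its absence (circles, Q175;Tyrobp-KO against Tyrobp-KO), with standard errors. The diamond lies to the right of the circle for 24 of the 25 genes, Lpl (named after its value was seen) being the exception, and no single difference passed the adjusted test.

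Some genes of resting astrocytes fell. Of 21 tested in that list, 7 fell (33.3%, where 3.08% of all genes were called lower) and none rose, with a median of -0.19. The falls were 3 without libraries 4 and 6, 10 without library 6 alone and 10 with the cortical covariate. Slc1a2, the main glutamate transporter, lay between 2177 and 2675 CPM with a median of 2422, against 2993 to 3251 CPM with a median of 3192 (-0.37 ± 0.06, edgeR adjusted p = 0.000319). Glul, glutamine synthetase, was at -0.40 ± 0.07 (adjusted p = 0.000391) and Atp1b2, a sodium pump subunit, at -0.29 ± 0.06 (adjusted p = 0.00304). Groups of these 3 genes did not overlap. Of 27 reactive astrocyte genes S100a10 (-0.64 ± 0.17) and Fbln5 (-0.70 ± 0.19) fell (adjusted p = 0.0272 for both), and without libraries 4 and 6 they were at -0.53 and -0.67 and were not called.

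Of 22 tested myelin genes, 6 fell, among them Mobp (-0.47 ± 0.11) and Ugt8a (-0.52 ± 0.12), with a median of -0.25. Mobp, a protein of compact myelin, lay between 1154 and 1563 CPM with a median of 1499 in Q175;Tyrobp-KO and between 1489 and 2416 CPM with a median of 2024 in Tyrobp-KO, so the groups overlapped. Without libraries 4 and 6, in a fit of fewer samples, none was called, while the median was -0.26 and Mobp was at -0.48. With Tyrobp present the median was -0.05 and none was called. The summed level of the list had medians of 12180 CPM in wild type, 14481 in Tyrobp-KO, 10695 in Q175 and 11370 in Q175;Tyrobp-KO. The difference between the 2 effects had an unadjusted edgeR p under 0.05 for 2 of the 22 genes, and none passed the adjusted test. Of 25 endothelial and pericyte genes 5 fell, among them Rgs5, Esam and Slco1a4, and none was called without libraries 4 and 6. Of 19 genes of oligodendrocyte precursors Ptprz1 fell (-0.20 ± 0.06, edgeR adjusted p = 0.0433, or 0.102 without libraries 4 and 6). That was 5.26% of the list, against 5.86% of all genes called.

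Of 75 nuclear respiratory chain genes 2 rose, Ndufv3 and Ndufb6 (2.67%, where 2.78% of all genes rose), and none was called without libraries 4 and 6. Of 13 mitochondrially encoded genes none was called, with a median of -0.19 and mt-Nd2 at -0.36 ± 0.11 (edgeR adjusted p = 0.0575). None of 31 proteasome subunits passed. Among 43 chaperones Hspa13 rose (0.28 ± 0.07) and Hsp90b1 fell (-0.27 ± 0.06), or 4.65% called against 5.86% of all genes. Without libraries 4 and 6 Hsp90b1 alone was called (edgeR adjusted p = 0.101 for Hspa13). Of 30 cholesterol genes 3 fell (10% called, against 5.86% of all genes): Msmo1, Acat2 and Idi1, by 0.48, 0.23 and 0.38 on the log2 scale, and 1 was called without libraries 4 and 6. Among 19 genes of mismatch repair and repeat length, which set how far the CAG tract grows in somatic cells, Rrm2b rose by 0.20 ± 0.06 (adjusted p = 0.0327, or 0.15 without libraries 4 and 6). It was 5.26% of the list, and Rpa1 and Msh6 did not pass. Of 19 tested genes in the list of huntingtin and its partners, 3 were called (15.8%), Htt and 2 partners: Hap1 (0.52 ± 0.14) and Hip1r (0.18 ± 0.05), neither of them without libraries 4 and 6. Of 24 striatal identity factors Zfp503 rose (0.45 ± 0.13, adjusted p = 0.0382, or 0.090 without those libraries), 4.17% called against 5.86% of all genes. Zswim6 and Rxrg were at -0.36 ± 0.12 and -0.47 ± 0.17 and did not pass. In Q175 against wild type 5 of these 24 factors fell. Their summed level had medians of 2408 CPM in wild type, 2126 in Tyrobp-KO, 2020 in Q175 and 1952 in Q175;Tyrobp-KO.

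The genes called without Tyrobp were largely called in its presence. Of the 1153, 783 were also called in Q175 against wild type, which is 67.9% of the calls here and 41.4% of the 1893 there, and 370 were not. Of those 370, 362 had the same sign there, and 46 (12.4%) had an unadjusted p under 0.05 for the difference between the 2 effects. Over all 19667 genes the difference passed the adjusted edgeR test for none, with 707 at an unadjusted p under 0.05. DESeq2 called 2, Ryr1 and Sipa1l3, and limma-voom none.

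For the spiny neuron lists the median changes and counts were larger with Tyrobp present, in a contrast that is in part between prefixes. The DARPP-32 list had a median of -0.41 with 23 falls there, against -0.26 with 11 here. The receptor list had -0.40 with 15 falls against -0.28 with 8, and the calcium list -0.21 with 16 against -0.14 with 9. Of these lists' members 3, 1 and 1 had an unadjusted p under 0.05 for the difference, out of 43, 30 and 37, and none passed. The protocadherins gave 17 rises and 1 fall in both, and the Hox genes 3 rises in both. The spiny neuron lists already had lower median levels in Tyrobp-KO than in wild type. Median summed levels of the DARPP-32 list were 22531 CPM in wild type, 18466 in Tyrobp-KO, 15278.5 in Q175 and 15054 in Q175;Tyrobp-KO. In the same order the receptor list had 4393, 3444, 3024 and 2876 CPM, and the calcium list 12283, 10854.5, 9251 and 9306 CPM.

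**Figure D5:**
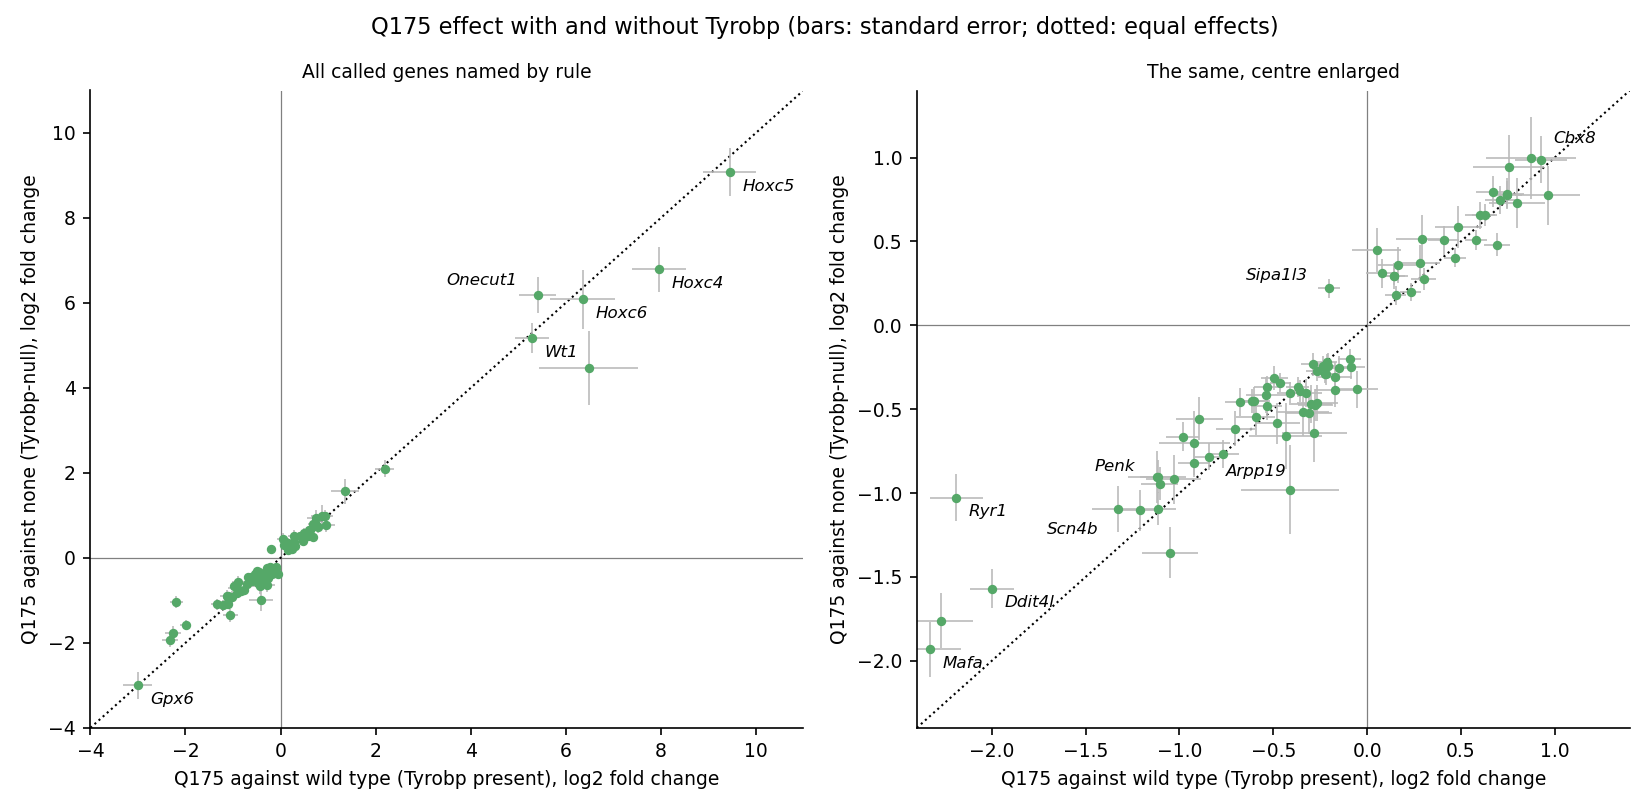
Log2 fold change of the Q175 allele without Tyrobp (y axis) against that in its presence (x axis) for the called genes that the naming rule picked, with standard errors. The right panel enlarges the centre, and the dotted line marks equal effects. Most genes lie near the line, Ryr1 lies above it, and Sipa1l3 lies up and to the left of the origin.

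Ryr1 had the smallest p for that difference. It read 13.2 to 20.4 CPM with a median of 19.9 in Q175;Tyrobp-KO and 31.3 to 48.4 CPM with a median of 34.1 in Tyrobp-KO, and had means of 32.4 CPM in Q175 and 148 CPM in wild type. Its level without Q175 thus already differed between the Tyrobp genotypes, and its effect of -1.03 ± 0.14 without Tyrobp was set against -2.19 ± 0.14 with it (difference 1.16 ± 0.20, edgeR adjusted p = 0.123). Sipa1l3, a GTPase-activating protein, was at 0.22 ± 0.06 here and -0.20 ± 0.06 with Tyrobp (difference 0.42 ± 0.08, adjusted p = 0.190), and its rise here was not called without library 6 (adjusted p = 0.057). Both genes lie near Tyrobp on chromosome 7, Ryr1 starting 1.41 Mb and Sipa1l3 1.09 Mb before it. In the 10 Mb on each side of Tyrobp 22 of 272 tested genes were called in Q175;Tyrobp-KO against Tyrobp-KO (8.09%, against 5.86% of all genes), 13 higher and 9 lower. For the difference by Tyrobp genotype 14 of the 272 had an unadjusted edgeR p under 0.05, where 3.59% of all genes did. Zfp456 (difference -1.27 ± 0.30) and Tcf23 (3.15 ± 0.79) followed, neither called in Q175;Tyrobp-KO against Tyrobp-KO.

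The neighbourhood of the knock-in was also read, since alleles linked to it travel with it. In the 10 Mb on each side of Htt on chromosome 5, 9 of 220 tested genes were called (4.09%, against 5.86% of all genes), 5 higher and 4 lower. Htt itself is counted among the 4. The nearest were Grk4, a receptor kinase starting 101 kb before Htt (0.73 ± 0.15, edgeR adjusted p = 0.00271), and Nop14, a ribosome biogenesis factor 123 kb before it (0.30 ± 0.06, adjusted p = 0.00118). Gm2420, a pseudogene, was at 0.995 ± 0.244 and Ppp1cb, a catalytic subunit of protein phosphatase 1, at -0.24 ± 0.06. Neither was called without libraries 4 and 6.

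The called genes were chosen from both sexes together, so their shared sign is largely set by that choice and is not counted here. The difference between the sexes passed the adjusted edgeR test for none, with 833 at an unadjusted p under 0.05 and none called by DESeq2 or limma-voom. Cep128 and Farp2 had the smallest p: Cep128 was at 0.00 in males and -0.83 in females, and Farp2 at 0.24 and -0.46. With 3 animals a sex and genotype, 156 genes were called in males and 520 in females, and a count in one sex does not show that the other lacks the effect.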

How the data were processed

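Striatum from a single hemisphere was flash frozen, taken through Trizol extraction and sequenced by Novogene on an Illumina NovaSeq, per the labels' protocols. The authors deposited raw counts per gene for 24 libraries. The submitters' processing notes name STAR, featureCounts, DESeq2 and a human build, GRCh38, although the genes are mouse genes. Strand use was not given in the sources used here, so antisense and overlapping genes are uncertain. Counts were fitted with edgeR 4.0.16 in R 4.3.3 (TMM, filterByExpr on genotype, robust quasi-likelihood, a mean per genotype and a sex term, all 24 libraries), leaving 19667 of 54532 genes. The adjusted threshold was 0.05. On simulated data the fit recovered 40.9%, 72.7% and 92.6% of genes changed by 0.5, 1 and 2 on the log2 scale, with 6 false of 144 calls. Alternatives used DESeq2 1.42.0 and limma 3.58.1.

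The comparison, the 37 lists (1101 genes, 1098 in the table) and the naming rule were chosen with earlier results of these data known. The rule named Tyrobp, Htt, the 12 risen and 12 fallen genes with the lowest p, 3 of each list, 4 by difference between Tyrobp genotypes, 2 by sex, and the 4 called genes nearest Htt, 136 genes in all, of which some are not reported here. No gene list was tested as a set. Counting intervals and floors cover counting error only.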

Additional observations from a re-analysis of the deposited data

Results flagged for a closer look

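In 17 of 280 sets of 6 libraries (the named genes and the dissection and blood sums, in each group) the highest or lowest library stood apart from the other 5 by Dixon's test, which flags about 1 in 20 by chance. In Tyrobp-KO these were Wt1 in library 2 (0.392 CPM, the others at most 0.110), Hoxc4 in library 1 (0.146), Hoxc6 in library 3 (0.0387, the others 0), Gpx6 in library 4 (12.4, the others at most 7.32), Cbx8 in library 6 (10.2), Idi1 in library 6 (16.2), mt-Nd2 in library 5 (4715, the others at most 3585), Tap1 in library 4 (4.10), Npy in library 6 (19.8, the others at least 28.1), Hba-a1 in library 2 (1.28) and Tcf23 in library 2 (0.678). The summed level of thalamus, septum and pallidum genes stood apart in library 2 (188 CPM). In Q175;Tyrobp-KO they were Oprd1 in library 4 (26.6 CPM), Kcnh8 in library 5 (0.799), Hsp90b1 in library 3 (209.7), Acat2 in library 5 (34.9) and the thalamus, septum and pallidum sum in library 2 (211 CPM, the others at most 170.0). For Wt1, Hoxc4, Hoxc6, Gpx6 and Cbx8 the library that stood apart in Tyrobp-KO did not reach the Q175;Tyrobp-KO range.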

How the results depend on the processing

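The 1153 calls became 1485 with these 12 libraries alone, 1164 with no sex term, 890 with no filter, 1158 with DESeq2 size factors, 1513 with DESeq2, 1178 with limma-voom and 1603 with the cortical covariate, which shared 1069 of the 1153, all with the same sign. Leaving out a library gave 809 (without Q175;Tyrobp-KO library 4) to 1083 (without its library 1). Males alone gave 104 calls (57 higher, 47 lower), females alone 290 (84 and 206), and leaving out Q175;Tyrobp-KO libraries 4 and 6 gave 450 (218 and 232); the cause was not tested beyond the smaller number of samples. Htt was at -0.33 in females alone (edgeR adjusted p = 0.113). The difference by Tyrobp genotype gave 2 calls with DESeq2 and 0 otherwise. Of the 90 named genes called, none reversed, and 58 were called without libraries 4 and 6, 76 without library 6 alone, 35 in males alone and 46 in females alone. The alternatives reuse the libraries that chose these genes, so kept signs, also under the covariate, are largely set by that choice. Signs turned for genes that were not called: in males alone Cep128 (0.0037), H2-Aa (-0.036), Synpo2 (0.25) and Farp2 (0.24), and without library 6 Tcf23 (-0.0097). No paired analysis was possible because the columns carry animal numbers and no replicate number shared between the groups. A group with 0 reads allows up to 0.0176 CPM in Tyrobp-KO and 0.0179 CPM in Q175;Tyrobp-KO. The covariate and the fits without libraries 4 and 6, or 6, were chosen after the data were seen.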
